A study of Mus musculus with 11 samples.

Results

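The RFX regions described here lie inside genes, away from the annotated gene ends, and carry RFX1, RFX2 and RFX3 peaks together. RFX1, RFX2 and RFX3 had been mapped by chromatin immunoprecipitation and sequencing (ChIP-seq) in mouse ependymal cells, and the deposited data hold 1 list of reproducible peaks per RFX. Peaks of the 3 lists that shared at least 1 bp were merged into 11236 regions. A region was kept when it held all 3 RFX and when the summit of its first RFX1 peak lay inside a protein-coding gene and over 1 kb from the start and end of every protein-coding gene (RefSeq, GRCm38). This left 506 regions, which is 4.5% of all merged regions and 506 of the 1221 regions with all 3 RFX (41.4%, 95% exact interval 38.7 to 44.3). A summit is the base of strongest signal in a peak. Of the other regions with all 3 RFX, 368 lay at gene ends (summit within 1 kb of an end) and 347 lay between genes.

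The cells came from wild-type OF1 mice and were differentiated ex vivo from lateral walls of the brain. Embryonic tissue is labelled, beside an age of P0. No transgene, deletion or treatment is named for any sample. The series holds 6 ChIP samples, 2 per RFX, and 5 input chromatin samples, 2 for RFX1, 2 for RFX2 and 1 for RFX3. Each RFX had its own antibody, and the RFX2 antibody lot differed between the replicates. The replicates of an RFX were merged in the deposited lists and the sequencing depth is unknown. No replicate error, no test between groups and no p-value could therefore be given. The values below are counts, medians and quartiles over regions, and the 95% intervals on shares (exact Clopper-Pearson) cover counting only. ChIP-seq measures where a protein sits and not how strongly a gene is expressed, so the labelled cell type could not be checked against expression of marker genes.

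The RFX family of winged-helix transcription factors binds DNA as dimers, classically at the X-box, an inverted repeat of short arms. They are best known as activators of the genes that build cilia. Ependymal cells line the brain ventricles, arise from radial glia and carry tufts of motile cilia that move cerebrospinal fluid. At ciliary genes the X-box usually sits just before the transcription start.

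Some of the regions inside genes lay on a transcription start that is not the outer end of the gene, and the sequence there could be read. The RefSeq table used for sequence gives 32851 windows of 300 bases, from 250 bases before to 50 bases after a start. It holds no window for chromosome 18, so the 18 regions there were not analysed here in this respect. Of the other 488 regions, 52 (10.7%, interval 8.06 to 13.7) overlapped such a window, 46 of them a window of the gene that held the region and 6 a window of another gene. The RFX1 summit lay within 100 bp of a start in 38 regions and within 50 bp in 24. The other 436 regions overlapped no start window, and their sequence was not analysed here. Windows were also missing for some genes on other chromosomes. Of the 479 genes that held a region, 381 had a window. Outside chromosome 18, a region in a gene without a window could not overlap a start of that gene. Unless it met a window of another gene, it counts here and below as off start windows. The share on start windows may therefore be too low.

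The windows were searched on both strands for 3 patterns. The single arm was GTTNCC, which reads GGNAAC on the other strand. The pair was GTTNCC followed after 0 to 3 bases by GGNAAC, so each pair also holds the single arm. These are fixed spellings, and an X-box with an arm of another spelling is not counted as a pair. The loose pair was GTNNCC followed after 0 to 3 bases by GGNNAC, and every pair is also a loose pair. A match describes letters and is not a measured site.

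The stretches that follow were chosen after the values were seen, to show the best match in a region, or the one nearest the RFX1 summit where matches tied. They are printed 5′ to 3′ on the strand of the gene, from RefSeq (GRCm38.p6), with the match in capitals. The first 5 hold a pair.
Prkar1a (chr11:109650854-109650883, plus strand): cctttaagGTTGCCAAGGCAACcgccctgg
1700041B01Rik (chr15:78670557-78670636, plus strand): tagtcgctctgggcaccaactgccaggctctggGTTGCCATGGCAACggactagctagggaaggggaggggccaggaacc
Fndc11 (chr2:181219954-181220033, plus strand): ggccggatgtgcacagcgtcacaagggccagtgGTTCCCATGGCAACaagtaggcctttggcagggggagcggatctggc
Pifo (chr3:106001498-106001550, minus strand): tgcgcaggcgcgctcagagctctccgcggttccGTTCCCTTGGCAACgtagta
Iqsec1 (chr6:90810242-90810321, minus strand): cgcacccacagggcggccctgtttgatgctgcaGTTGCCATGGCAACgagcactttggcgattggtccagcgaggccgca
These are the 5 regions of 52 with a pair. Prkar1a encodes a regulatory subunit of protein kinase A, Pifo (pitchfork) is a gene linked to primary cilium disassembly, and Iqsec1 encodes an exchange factor for ARF GTPases. The window of 1700041B01Rik lies inside Elfn2. From the centre of the pair to the RFX1 summit the distance was 6.5 bp in the median, with 3.5 bp as the shortest and 21.5 bp as the longest. The medians to the RFX2 and RFX3 summits were 2.5 and 13.5 bp. In Prkar1a the RFX1, RFX2 and RFX3 summits lay 3.5, 2.5 and 1.5 bp from that centre.

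The next 5 stretches show regions in which the best match was a loose pair, where 1 or both arms depart from GTTNCC or GGNAAC.
Ttll3 (chr6:113392372-113392451, plus strand): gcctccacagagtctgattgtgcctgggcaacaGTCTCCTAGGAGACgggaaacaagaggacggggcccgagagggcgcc
Intu (chr3:40540684-40540763, plus strand): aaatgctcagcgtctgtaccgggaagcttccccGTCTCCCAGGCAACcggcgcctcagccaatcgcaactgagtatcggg
Per1 (chr11:69099995-69100074, plus strand): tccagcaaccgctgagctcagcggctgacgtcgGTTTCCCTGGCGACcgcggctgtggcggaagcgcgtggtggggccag
Ubxn6 (chr17:56075069-56075148, minus strand): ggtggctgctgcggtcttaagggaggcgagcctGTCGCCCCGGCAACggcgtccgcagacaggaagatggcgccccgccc
Dalrd3 (chr9:108569897-108569926, plus strand): gtcttccgGTCGCCATGGCGACcgggcgcc
Ttll3 encodes a tubulin glycylase of motile cilia, Intu a planar cell polarity effector needed for cilium assembly, and Per1 a component of the circadian clock. A loose pair was the best match in 12 of the 52 regions. It lay 5.25 bp from the RFX1 summit in the median, and within 50 bp of it in 9 of the 12. A loose pair in Intu lay 3.5, 2.5 and 3.5 bp from the RFX1, RFX2 and RFX3 summits.

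The last 4 stretches show single arms, at RFX genes themselves and at genes of ciliary motility.
Rfx1 (chr8:84066821-84066850, plus strand): agggtgggtagcaacaGTTGCCccggtgag
Rfx3 (chr19:28011122-28011151, minus strand): gtgagttatagcaaccGTTGCCttgtgaat
Dnaaf2 (chr12:69198430-69198471, minus strand): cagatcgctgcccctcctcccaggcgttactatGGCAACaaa
Ttll9 (chr2:152962441-152962484, plus strand): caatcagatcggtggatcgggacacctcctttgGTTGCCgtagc
Dnaaf2 is a cytoplasmic assembly factor of dynein arms, and Ttll9 encodes a tubulin polyglutamylase of the tubulin tyrosine ligase-like family. A single arm was the best match in 30 of the 52 regions, within 50 bp of the RFX1 summit in 19 of the 30 and at a median of 22.5 bp. This does not say that a second arm of another spelling was absent beside it. The other 5 regions held none of the patterns inside their windows, which says only that these letters are absent from those windows.

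The 52 regions touched 64 start windows, some of which overlap each other. Of these 64 windows, 53 (82.8%) held the single arm, against 45.3% of all 32851 windows and 43.9% of the 30941 windows that no RFX region touched. A pair was held by 6 of the 64 (9.38%, interval 3.52 to 19.3), against 0.804% of all windows and 0.446% of the untouched ones. A loose pair was held by 20 of the 64 (31.2%, interval 20.2 to 44.1), against 3.86% and 2.66%. The 391 windows touched by the other regions with all 3 RFX gave 75.2%, 11.3% and 30.9% for the same patterns, all inside the intervals of the 64 (71.3 to 91.1 for the single arm). The windows touched by RFX1 and RFX3 regions, 927 in all, gave 67.3%, 5.72% and 24.6%. None of these shares was tested.

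The regions were chosen by their peak calls, that is by the presence of a called peak in every list, and by the position of the RFX1 summit. Peak strength enters a call, so the strengths are a description. Fold enrichment is the authors' ratio of ChIP signal to background for a peak, and −log10 q is their peak caller's measure of confidence. The median RFX1 fold of the 506 regions was 12.9 (quartiles 10.5 and 16.2, range 4.67 to 38.1). The median RFX2 fold was 10.4 (quartiles 8.45 and 13.1, range 5.47 to 36.9). RFX3 spread most widely, with a median of 10.9, quartiles of 7.05 and 18.01 and a range of 2.65 to 48.7. The medians of −log10 q were 83.3, 29.1 and 61.0 in the same order. Of the 506 RFX1 peaks that place the regions, 200 (39.5%) were among the best 10% of the RFX1 list, and 235 (46.4%) of the RFX3 peaks were among the best 10% of theirs. For RFX2 this share was 10.9%. Regions with all 3 RFX at gene ends gave 76.6% for RFX1, 55.4% for RFX3 and 8.70% for RFX2. Those between genes gave 35.7%, 48.7% and 10.7% in the same order. The RFX2 list is the shortest, with 1250 peaks against 7440 and 9318, and 506 of its peaks (40.5%) fell in these regions.

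Regions with RFX1 and RFX3 but no RFX2 peak, of which 1842 lay inside genes, had lower medians of 7.29 for RFX1 and 7.84 for RFX3. Among them 1.36% of RFX1 peaks and 6.84% of RFX3 peaks were in the best 10%. Whether RFX2 was absent there or below the reach of its list cannot be told apart.

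**Figure D1:**
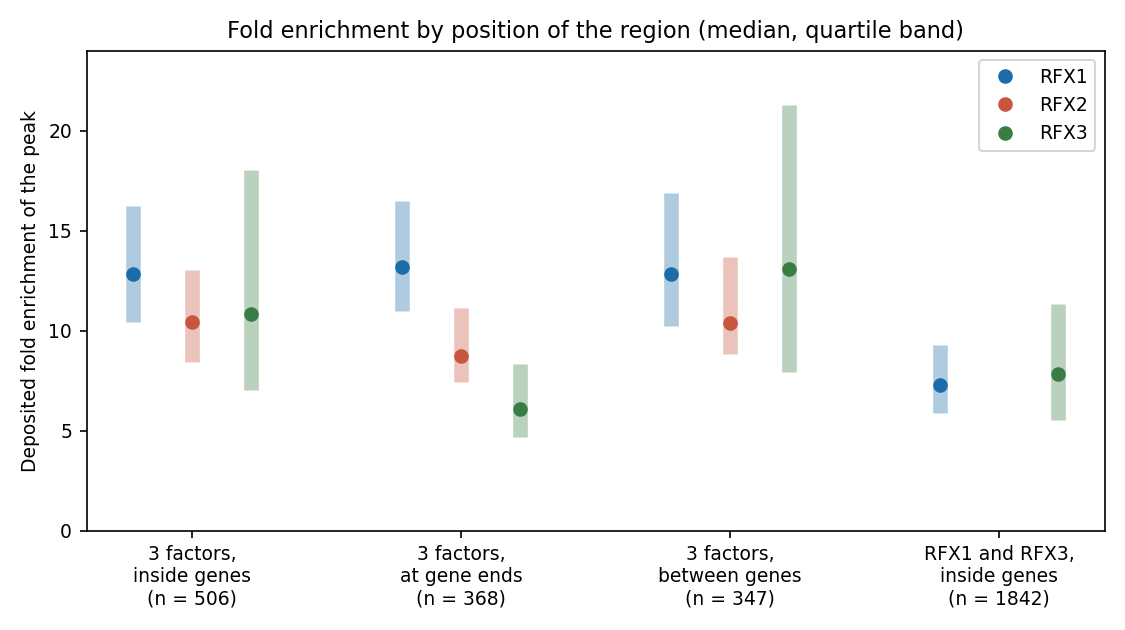
Deposited fold enrichment (vertical axis, ratio) of RFX1, RFX2 and RFX3 peaks by position of the region; points are medians over regions and bands run from the lower to the upper quartile. RFX1 medians lie between 12.8 and 13.2 in the 3 classes that hold all 3 RFX, whereas the RFX3 median is 6.10 at gene ends, 10.9 inside genes and 13.1 between genes.

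The 3 RFX of a region sat at nearly the same place. The distance between RFX1 and RFX2 summits was 13 bp in the median, that between RFX1 and RFX3 summits 12 bp, and that between RFX2 and RFX3 summits 17 bp. RFX1 and RFX2 summits lay within 50 bp of each other in 95.5% of regions, RFX1 and RFX3 summits in 94.9%, and RFX2 and RFX3 summits in 87.9%. All 3 summits together spanned a median of 25 bp, with quartiles of 15 and 39 bp. The peaks themselves were far wider, with medians of 418, 420.5 and 337 bp. Medians of the 3-summit span were close in regions on start windows (22.5 bp) and off them (26 bp), and in regions at gene ends (22 bp).

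A few regions departed from this. The widest span was 472 bp, in Dlg4, which encodes the postsynaptic scaffold PSD-95. It was followed by Cyb5rl with 385 bp and Sema6d, a semaphorin gene, with 331 bp. Spans used the first peak of each RFX by coordinate. The Cyb5rl region held 4 peaks, so its span may depend on that choice. In most regions each RFX had a single peak (502 of 506). The exceptions were 3 regions of 4 peaks, in Ildr2, Msi1 and Cyb5rl, and 1 region of 5 peaks in the complement gene Hc. The RFX1, RFX2 and RFX3 folds of the Hc region were 22.2, 20.1 and 37.9, and its 3 leading summits lay within 3 bp.

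**Figure D2:**
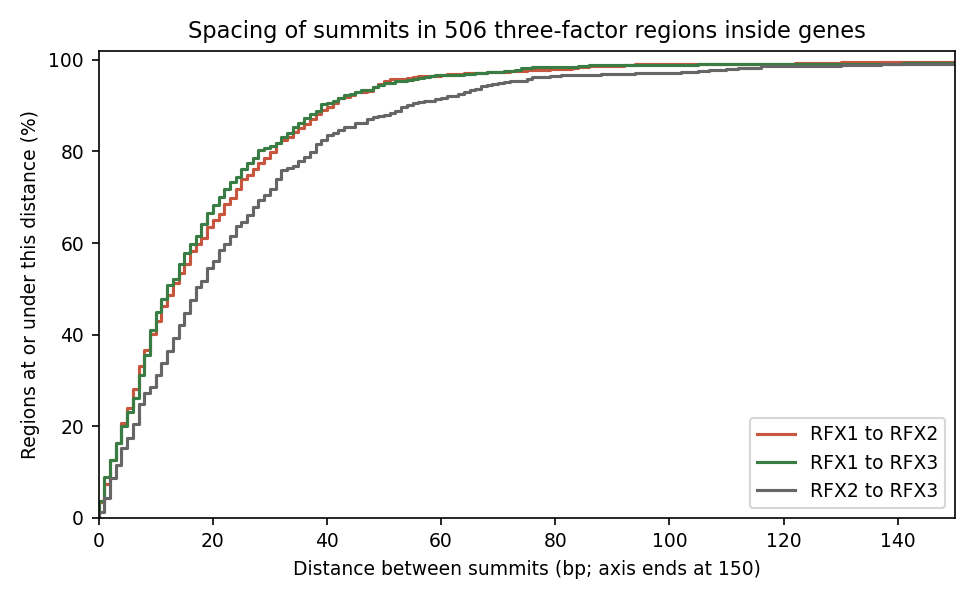
Share of the 506 regions (vertical axis, percent) whose summits lie at or under a given distance (horizontal axis, bp, ending at 150), with 1 line per pair of RFX. The lines for RFX1 with RFX2 and RFX1 with RFX3 run together, and the line for RFX2 with RFX3 lies below them, at 87.9% by 50 bp.

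Across the 506 regions the folds of the 3 RFX were loosely related, and their −log10 q somewhat more closely. For fold, Spearman's rank correlation was 0.490 between RFX1 and RFX2, 0.352 between RFX1 and RFX3 and 0.447 between RFX2 and RFX3. For −log10 q it was 0.601, 0.503 and 0.463 in the same order. These correlations describe regions that share their DNA and cells, and they carry no p-value. Every region had to be called in all 3 lists, which limits the range of strengths compared.

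The regions with the best mean rank over the 3 lists were ranked by −log10 q, and their folds were not all high. Rtn1, which encodes a reticulon of the endoplasmic reticulum, had folds of 38.1 for RFX1, 25.4 for RFX2 and 25.8 for RFX3 at chr12:72265132-72265741, 53739 bp from the nearest gene end. Its RFX1 fold is the highest of the 506. Galnt13, a glycosyltransferase gene, had folds of 27.5, 19.5 and 48.7 at chr2:55003187-55003872, and its RFX3 fold is the highest. Tmem108 had 25.7, 35.3 and 38.8, and Arhgap12 had 32.6, 28.7 and 42.1. Tox2, an HMG-box gene, held the first-ranked peak of the whole RFX2 list, with folds of 14.1, 34.5 and 17.04. Tppp3, which encodes a tubulin polymerization promoting protein found in ependymal cells, had folds of 20.04, 22.4 and 9.43. Its RFX3 fold lay below the median of 10.9 over the 506 regions. Diaph3 (a formin), Ildr2, Slc8a1 (the sodium-calcium exchanger) and Por (cytochrome P450 oxidoreductase) complete the 10 best, with RFX1 folds between 19.3 and 21.9.

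The 5 regions of worst mean rank lay in Pitpnc1, Arhgap6, Ccnl1, Oat and Ccna1. Their RFX2 folds ran only from 10.1 to 10.8, close to the median of all 506 regions, and their RFX3 folds from 5.46 to 7.84. Their RFX3 ranks ran from 7095 to 9043 in a list of 9318, and a rank in the shorter RFX2 list cannot exceed 1250.

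Some regions leaned towards or away from RFX2. Both regions in Rfx4, an RFX gene of radial glia and astrocytes, leaned towards it: the RFX1, RFX2 and RFX3 folds were 7.21, 15.1 and 4.99 in the first and 10.4, 18.3 and 8.19 in the second. Fndc3b had 15.1, 26.5 and 13.9, and Tmem219 had 18.5, 19.5 and 4.78. The opposite lean was seen in Slc1a2, the main glutamate transporter of astrocytes, with 19.9, 9.38 and 32.5, and in Igsf5 with 17.9, 6.94 and 31.4. Syt10, Arhgef40 and Prkar1a also leaned away from RFX2. Because the lists were called separately, a fold of 10 in a list is not the same amount of protein as a fold of 10 in another, and only the order within a list was used to choose these genes.

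By fold, RFX3 differed more with position than RFX1; by −log10 q, RFX1 differed more than RFX3. The median RFX1 fold was 12.7 in the 52 regions on a start window and 12.9 in the 436 off them. The 436 include regions in genes without any window, where a start could have been missed. The median RFX3 fold was 6.89 on start windows and 11.7 off them. Dividing RFX3 by RFX1 fold within each region gave a median ratio of 0.526 on start windows (quartiles 0.436 and 0.736) and 0.915 off them (quartiles 0.608 and 1.28). RFX3 had the higher fold in 7 of 52 regions on start windows (13.5%, interval 5.59 to 25.8) and in 179 of 436 off them (41.1%, interval 36.4 to 45.8). The median −log10 q of RFX3 was 64.1 on and 59.3 off start windows, and that of RFX1 was 105.02 on and 80.55 off them. In regions with all 3 RFX at gene ends and between genes, it was 67.3 and 60.1 for RFX3 and 116.8 and 78.4 for RFX1. Because the folds come from separate lists, the ratio is compared between positions only and does not say which RFX was more abundant at a region.

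The ratio was also higher far from gene ends. It was 0.629 at 1 to 2 kb, 0.582 at 2 to 5 kb, 0.792 at 5 to 10 kb, 0.985 at 10 to 50 kb, 0.979 at 50 to 100 kb and 1.03 beyond 100 kb. Regions off start windows showed the same order, with 0.644 within 5 kb (83 regions), 0.951 at 5 to 50 kb (236) and 1.03 beyond 50 kb (117). RFX3 exceeded RFX1 in 3 of 35 regions at 1 to 2 kb and in 31 of 60 beyond 100 kb. For comparison the ratio was 0.456 in regions with all 3 RFX at gene ends and 1.02 in those between genes. Regions with only RFX1 and RFX3 inside genes, chromosome 18 left out, showed a difference of the same direction, 0.677 on start windows (110 regions) and 1.08 off them (1666). The ratio of RFX2 to RFX1 fold had medians of 0.737 on and 0.824 off start windows, a smaller difference in the same direction. These differences could not be tested, since no values by replicate were at hand.

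**Figure D3:**
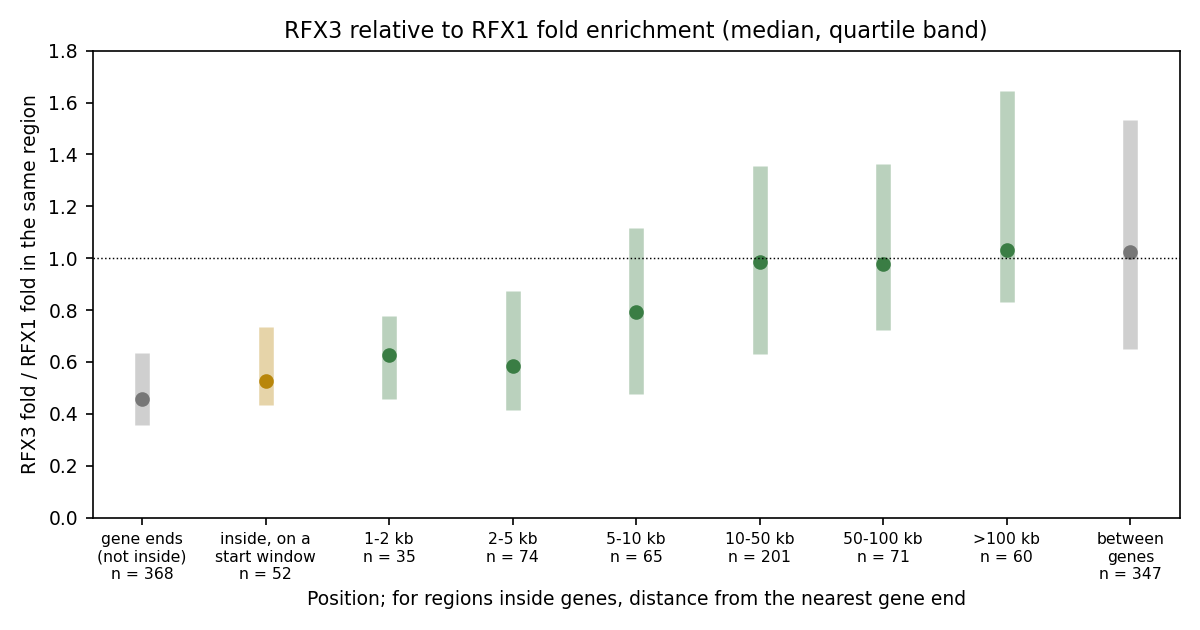
Ratio of RFX3 to RFX1 fold enrichment in the same region (vertical axis) by position, as median (point) and quartile band; green points are the 506 regions by distance of the summit from the nearest gene end, and the 52 regions on a start window, shown beside them, are also counted in the green points. The medians are 0.526 on start windows, 0.582 at 2 to 5 kb and 1.03 beyond 100 kb, against 0.456 at gene ends and 1.02 between genes.

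Most of the regions lay deep inside their genes. The median distance from the nearest protein-coding gene end was 18532.5 bp (quartiles 5959 and 51514 bp), and the range was 1254 to 711637 bp. The rule fixed only the lower limit. The largest group, 201 of 506 regions (39.7%), lay at 10 to 50 kb, and 60 lay beyond 100 kb. The 5 farthest were in Csmd1 (711637 bp), Pde4d (589218 bp), Tenm3 (487140 bp), Adgrl3 (340591 bp) and Nlgn1 (329473 bp). Pde4d encodes a phosphodiesterase of cyclic AMP, and Tenm3, Adgrl3 and Nlgn1 encode cell adhesion proteins of neurons. The Csmd1 region had folds of 11.9 for RFX1, 11.8 for RFX2 and 33.7 for RFX3.

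Near the limit of 1 kb, the regions just inside the rule lay in Dnajc1 (1254 bp), Dbn1 (1266 bp) and Mapk10 (1271 bp). The regions just outside it lay in Anks3 (994 bp), Synrg (992 bp) and Stpg1 (982 bp). RFX1, RFX2 and RFX3 folds were 14.4, 9.97 and 5.83 in Dnajc1 and 13.5, 7.48 and 4.73 in Anks3. Mapk10 had 20.3, 16.5 and 34.9.

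Along the gene, the regions whose gene had a known strand leaned towards the 5′ side. The strand was known for the gene of 407 regions. It came from the start windows, so regions in genes without a window, and all on chromosome 18, were left out. Regions on a start window of their own gene, 46 in all, were not set apart here. When each of these genes was divided into 5 equal pieces from its 5′ end, the pieces held 104, 96, 66, 70 and 71 regions. Whether a region lay in an exon, an intron or an untranslated region was not analysed here. Within 1 kb of an end of a gene that is not protein-coding lay 20 regions. A region in Srf, which encodes serum response factor, lay 926 bp from the microRNA gene Mir6976.

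The 506 regions lay in 479 protein-coding genes, which is 2.19% of all 21887 such genes and 2.48% of the 19304 genes over 2 kb, the length a gene needs to hold a region under the rule. Of the 479 genes, 448 held 1 region and 31 held 2. The 2 regions of a gene were within 10 kb of each other in 9 genes and over 100 kb apart in 12. The closest lay 387 bp apart in Rfx4, then 4683 bp in Tpm3, a tropomyosin gene, and 5428 bp in Rfx2. Other RFX regions lay inside 242 of the 479 genes (50.5%). Where genes overlap, a region counted for each, which concerned 4 regions.

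Long genes held these regions most often. The genes had a median length of 99.2 kb, against 21.3 kb for all genes over 2 kb. The share of genes that held a region was 0.281% at 2 to 10 kb, 1.19% at 10 to 30 kb, 2.95% at 30 to 100 kb, 7.80% at 100 to 300 kb and 16.3% over 300 kb. Per Mb of gene the classes differed less, with 0.504, 0.660, 0.557 and 0.522 regions per Mb in the first 4 classes, and 0.317 in the longest. Sites at gene ends did not follow length in this way. A summit of any RFX within 1 kb of an end was present in 9.41%, 10.98%, 12.7%, 12.98% and 9.69% of the same classes.

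**Figure D4:**
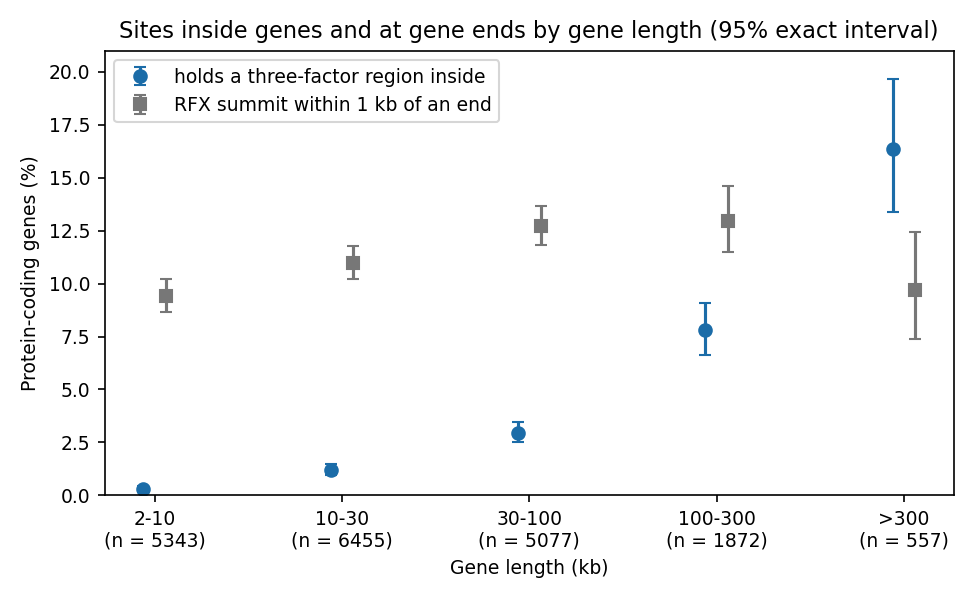
Share of protein-coding genes (vertical axis, percent) that hold a region with all 3 RFX inside (circles) and that have a summit of any RFX within 1 kb of an end (squares), by gene length (horizontal axis, kb); bars are 95% exact intervals. The circles climb from 0.281% to 16.3%, and the squares stay between 9.41% and 12.98%.

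The genes were bound at an end about as often as other genes or somewhat more. Of the 479 genes, 72 (15.03%, interval 11.95 to 18.6) had a summit of any RFX within 1 kb of an end, beside 11.2% of all genes over 2 kb. By RFX the shares were 13.4% and 10.01% for RFX1, 2.71% and 2.33% for RFX2, and 11.7% and 8.78% for RFX3. The share for RFX2 is near its background. In the 64 genes with an RFX1 peak at an end, the peak inside the gene had the higher RFX1 fold in 47, with medians of 13.2 inside and 7.002 at the end. Only 13 of those 64 end regions held all 3 RFX. The inner regions had to hold all 3 RFX by the rule and the end regions did not, so this difference is a description. The share of regions whose gene was bound at an end fell from 15.4% to 4.91% when all lists were cut to the length of the RFX2 list, 1250 peaks. The share of all genes over 2 kb bound at an end fell alongside, from 11.2% to 4.07%.

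RFX genes themselves were among the holders. Of Rfx1 to Rfx8, 4 genes (Rfx1, Rfx2, Rfx3 and Rfx4) held 7 regions in all, beside 2.48% of all genes over 2 kb that held any. Rfx3 spans 253 kb and Rfx4 150.5 kb, and 7.80% of all genes at 100 to 300 kb held a region. Rfx1 spans 33.4 kb and Rfx2 55.1 kb. The 2 regions in Rfx4 lay only 387 bp apart. Of these 4 genes only Rfx2 was bound at an end, by RFX1 and RFX3. The Rfx1 region, at chr8:84066521-84067018 on an inner start of the gene, had folds of 22.3 for RFX1, 23.7 for RFX2 and 7.13 for RFX3. Rfx3 held a region on an inner start at chr19:28010888-28011254, with folds of 22.1, 27.1 and 9.49, and another 22211 bp away with 32.4, 21.5 and 21.2. The single arms at both inner starts are printed above. In Rfx2 the folds were 14.6, 18.3 and 6.30 in the stronger region and 12.1, 11.3 and 5.71 in the other.

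Genes were also counted over 18 lists of ciliary, signalling and cell type genes, which were drawn up with earlier results of these data known. Each share is set beside 2.48%, the share of all genes over 2 kb, and no list was tested. List genes differ in length, and the share rose with length as described above. Several genes stand in more than 1 list, among them Nfia, Nfib, Nfix, Rfx4, Tppp3 and Aqp4.

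Genes listed under the multiciliated programme held regions in 8 of 37 cases (21.6%, interval 9.83 to 38.2), with 7 of the 37 bound at an end. The holders were Rfx1 to Rfx4, Gmnc, Nfia, Nfib and Nfix. Of these, Nfia, Nfib, Nfix and Rfx4 are also holders in the astroglial and radial glial list below. Gmnc, which encodes GEMC1, a coiled-coil protein at the top of the multiciliated programme, had folds of 24.6 for RFX1, 14.1 for RFX2 and 27.5 for RFX3 at chr16:26965386-26965979. Nuclear factor I genes, which encode transcription factors of glial development, held a region in 3 of 4 cases and had no bound end in any. Nfia spans 541 kb, Nfib 217 kb and Nfix 96.5 kb. Of all genes, 2.95% at 30 to 100 kb, 7.80% at 100 to 300 kb and 16.3% over 300 kb held a region. The folds were 12.1, 11.99 and 16.2 in Nfia, 15.6, 10.9 and 12.5 in Nfib, and 9.09, 10.1 and 5.02 in Nfix. Developmental transcription factors as a whole held regions in 8 of 81 cases (9.88%), among them Tox2, Npas3 and Trps1, and their median length was 101.9 kb.

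Planar cell polarity genes, which orient cells and their cilia within the sheet, held regions in 7 of 28 cases (25%, interval 10.7 to 44.9), and 2 of the 28 were bound at an end. The median length of the planar cell polarity list was 58.4 kb. Ror1, Prickle2, Intu, Daam1 and Ankrd6 span 147 to 349 kb, Fzd3 spans 70.0 kb and Vangl2 26.4 kb. Of all genes, 7.80% at 100 to 300 kb and 16.3% over 300 kb held a region. Vangl2 and Fzd3, core components of the pathway, ranked better in the RFX3 list than in the RFX1 list. The folds for RFX1, RFX2 and RFX3 were 7.47, 11.5 and 18.3 in Vangl2 and 9.01, 11.1 and 32.2 in Fzd3. Ror1, a receptor tyrosine kinase of Wnt signalling, had 14.9, 8.25 and 28.4. The Vangl2 region ranked 39 of 9318 in the RFX3 list and 2630 of 7440 in the RFX1 list, and the Fzd3 region ranked 248 and 1791. Prickle2, Ankrd6, Intu and Daam1 were the other holders, Daam1 with 2 regions. Intu, with 11.7, 6.98 and 9.25, is the gene whose loose pair is printed above.

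Astroglial and radial glial genes held regions in 8 of 37 cases (21.6%, interval 9.83 to 38.2), with 2 of the 37 bound at an end. Of this list, Aqp4, Gja1, S100b, Sox2, Sox9 and Vim also stand in the ependymal marker list, and expression was not measured. Slc4a4, a sodium bicarbonate cotransporter, had folds of 17.5 for RFX1, 27.3 for RFX2 and 30.2 for RFX3, 73032 bp from the nearest gene end. Aqp4, the water channel of astrocytes and ependymal cells, had 11.3, 6.61 and 10.16. Ptprz1, Slc1a2, Nfia, Nfib, Nfix and Rfx4 were the others. The median length of the list was only 13.1 kb, but most holders were among its long genes: Slc1a2 spans 133 kb and Slc4a4 spans 446 kb. Ependymal marker genes held regions in 3 of 24 cases (Tppp3, Aqp4 and Cd24a), with 10 of the 24 bound at an end.

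Notch pathway and Id genes held regions in 5 of 31 cases (16.1%). Notch1 and Notch4 are receptors, Lfng is a glycosyltransferase that modifies Notch, and Maml2 and Maml3 are nuclear coactivators. Maml2 spans 413 kb and Maml3 418 kb, whereas Notch1 spans 45.9 kb, Notch4 24.3 kb and Lfng 8.2 kb. The folds in Lfng were 17.8, 13.4 and 4.47 in the order RFX1, RFX2, RFX3, and Notch1 had 10.8, 6.58 and 3.95. The stronger of the Maml2 regions had 20.9, 20.9 and 12.3. Among Wnt genes only Znrf3, which encodes a ubiquitin ligase that removes Wnt receptors, held a region (1 of 42, 2.38%), with folds of 23.8, 15.1 and 29.3. Hedgehog genes (0 of 30) and BMP and TGF-beta genes (0 of 33) held none. A count of 0, taken as up to 3 genes, allows shares of up to 10% and 9.09%, and the exact 95% intervals reach 11.6% and 10.6%.

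Genes of the cilium itself were bound by RFX more often at an end than inside. Of 201 genes in 4 ciliary lists, 134 (66.7%) had a summit of any RFX at an end and 49 (24.4%) held a region of any RFX inside. By the stricter measure of all 3 RFX, the counts were 43 (21.4%) at an end and 10 (4.98%) inside. All genes over 2 kb gave 11.2% and 15.6% for any RFX, and 2.33% and 2.48% for all 3. The counts inside that follow need all 3 RFX and those at an end need any RFX. Intraflagellar transport and BBSome genes held a region inside in 0 of 47 cases, which allows a share of up to 6.38% (3 genes of 47; the exact interval reaches 7.55%), while 35 of the 47 were bound at an end. By like measures, 7 of the 47 (14.9%) held a region of any RFX inside, and 13 (27.7%) had all 3 RFX at an end. Transition zone and basal body genes held 1 in 60 (Odf2, a gene of basal body appendages), with 33 bound at an end. Motile axoneme genes held regions in 7 of 78 cases (8.97%), with 57 bound at an end, and dynein assembly genes in 2 of 16, with 9 bound at an end. Of the 10 regions with all 3 RFX in the 4 lists, 6 lay on an inner start window, and 8 of the 10 genes had no bound outer end.

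Among the axoneme holders, Cfap54, Cfap74 and Cfap221 encode parts of the central apparatus, Tekt4 a tektin, Dnah2 a dynein heavy chain, and Ttll3 and Ttll9 modify tubulin. Tekt4 had folds of 17.3 for RFX1, 8.97 for RFX2 and 7.11 for RFX3. Ttll3 had 19.6, 7.64 and 5.69, and Cfap54 had 15.02, 10.997 and 11.9. Cfap74 had 11.4, 11.8 and 5.63, and Cfap221 had 10.96, 11.1 and 7.63. The assembly factors were Spag1 with 12.9, 8.91 and 4.62 and Dnaaf2 with 9.08, 8.60 and 5.77.

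Microtubule and tubulin-modifier genes held regions in 9 of 60 cases (15%), with 20 bound at an end. Tppp3 was the strongest by rank, and Map6, Dst and Map2 were others. The list had a median length of 57.5 kb. Dst spans 401 kb, Map2 267 kb, Map6 70.4 kb and Tppp3 3.93 kb. Of markers of other cell types, 1 of 28 neuronal genes (Map2, 3.57%) and 1 of 15 oligodendroglial genes (Mbp, 6.67%) held a region, shares that cannot be told from 2.48% at these list sizes. No region was held by 14 choroid plexus and 22 microglial and vascular genes; the counts of 0, taken as up to 3 genes, allow shares of up to 21.4% and 13.6%, and the exact intervals reach 23.2% and 15.4%.

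**Figure D5:**
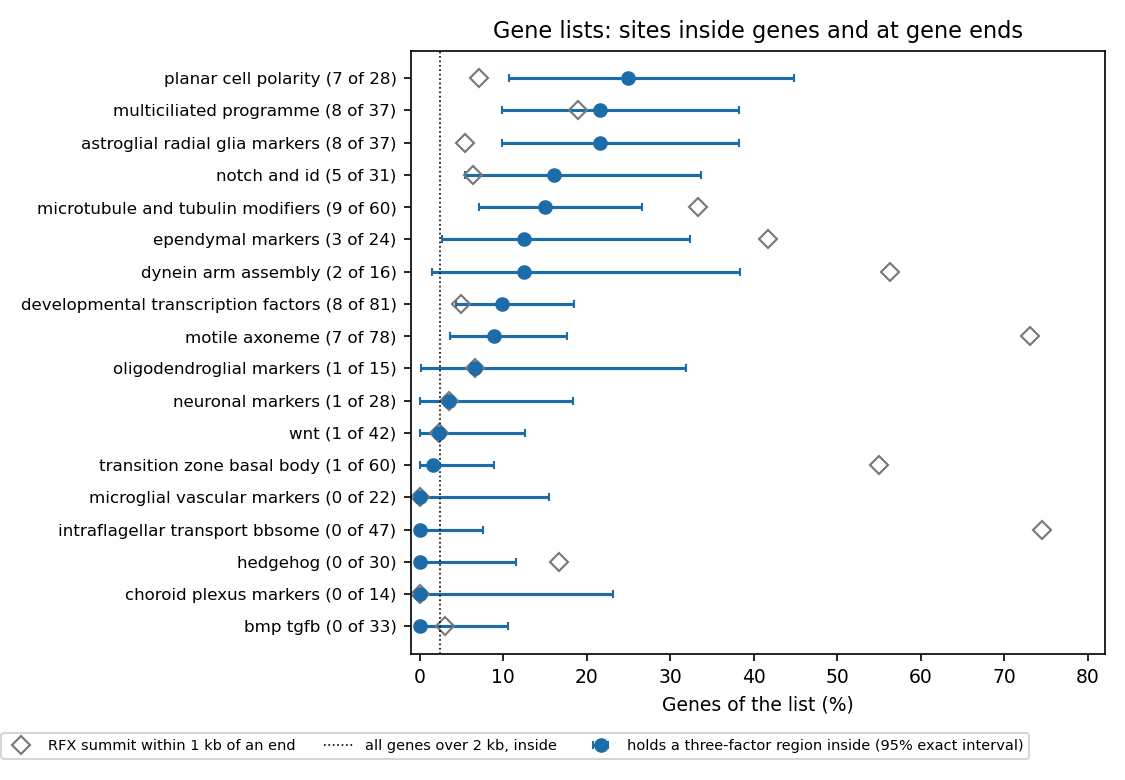
Share of the genes of each list (horizontal axis, percent) that hold a region with all 3 RFX inside (filled circles, 95% exact interval) and that have an RFX summit within 1 kb of an end (open diamonds); the dotted line is 2.48%, the share of all genes over 2 kb. Planar cell polarity genes stand at 25% inside and 7.14% at an end, and intraflagellar transport and BBSome genes at 0% inside and 74.5% at an end. The circles need all 3 RFX and the diamonds need any RFX. By like measures, intraflagellar transport and BBSome genes gave 14.9% inside for any RFX and 27.7% at an end for all 3 RFX.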

How the data were processed

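Binding was measured by ChIP-seq, and the 3 deposited lists of reproducible peaks were used, with the 2 replicates of each RFX already merged by the authors. The build was GRCm38, and the tools listed were MACS2 2.0.10.20130520, Bowtie 0.12.7 and CASAVA 1.8.2, per the submitters' processing notes, which give no roles. Not given in the sources used are the rule for reproducible peaks and the control of each call. Per the file layout, the deposited values of a peak are a score, a fold enrichment (ratio), −log10 p and −log10 q, and a summit offset. The deposited score equals the whole part of 10 times −log10 q in all 3 lists, and the deposited −log10 p column (1 per list) was not used. Depth is unknown, so intervals cover counting only. A peak that a list lacks was not called there, and longer lists reach weaker sites.

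Peaks that shared at least 1 bp were merged. Genes were 21887 protein-coding genes of a RefSeq table (GRCm38.p6), and starts were 32851 RefSeq windows of 27025 genes. Gene strand came from those windows. Where a region held several peaks of an RFX, that RFX was represented by the first by coordinate. Of 649 list symbols 646 matched the gene table. Python 3.11.15, pandas 2.3.3, numpy 2.4.6, SciPy 1.17.1 and matplotlib 3.10.9 were used, and the merging and placing of regions were tested on simulated data. Shares carry 95% exact Clopper-Pearson intervals, and no test was made because no values by replicate were at hand.

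The regions and the gene lists were chosen with earlier results of these data known. Genes were named by rule: the 10 best and 5 worst regions by mean rank of −log10 q, the 5 with the most and the 5 with the least favourable RFX2 rank, the 5 genes with most regions, the 5 farthest regions, the 3 nearest the 1 kb limit on either side, the 3 with the widest summits and the 3 with most peaks, and up to 4 genes per list. Other genes, and all printed sequences, were picked with their values in view. The search for start windows, the sequence patterns and the ratio of RFX3 to RFX1 fold were also added after the data were seen. The 7 alternatives tried were other distances from gene ends (500 bp, 5 kb), stricter or shorter lists, a 50% overlap, another RFX1 peak to place the region, and all gene types.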

Additional observations from a re-analysis of the deposited data

How the results depend on the processing

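Over 7 alternatives and 12 values, 64 of 84 recomputed values stayed within 1.5 times a count or within the interval of the median or share, and 20 did not. The number of regions was 236 with peaks at or above the median −log10 q of their list and 224 with each list shortened to 1250 peaks. With the same settings the median RFX1 fold was 14.9 and 14.95, the RFX2 fold 13.3 and 11.6, the RFX3 fold 12.2 and 12.7, the share of regions whose gene was bound at an end 11.9% and 4.91%, and the share of genes with a region 1.06% and 1.01%. The median distance between RFX2 and RFX3 summits was 15.5 bp with the stricter peaks. Shortened lists gave 14.4% of regions on a start window and a ratio of RFX3 to RFX1 fold off start windows of 0.995. Beyond 5 kb from gene ends the RFX3 fold was 12.5, the share on a start window 7.35%, the ratio off start windows 0.979 and the share of genes 1.72%. Beyond 500 bp, the share whose gene was bound at an end was 20.6%. The cause was not tested. The share on a start window and both ratios were added after the data were seen. The overlap, placing peak and gene type alternatives moved none of the 12 values. No paired analysis was possible because the deposited lists merge the replicates and no result comes from a test; for the same reason no replicate could be left out. Unknown depth limits every statement that a peak is missing.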
